A study of Rattus norvegicus with 145 samples.

Results

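The cerebral cortex of heterozygous Q130 knock-in (KI) rats of 24 months was compared with that of wild-type (WT) rats of the same age. The libraries were chosen by their labelled genotype, region and age, which gave 11 of the 145 libraries of the series, 7 KI (3 female, 4 male) and 4 WT (2 female, 2 male). The series profiled messenger RNA by bulk sequencing in striatum, cortex and cerebellum of a Long Evans rat line that models Huntington's disease, with animals of 10, 19 and 24 months, besides striatum libraries of males of 2 and 6 months that are not used here. The KI animals carried the Q130 allele in the heterozygous state, so that they kept a wild-type copy, and no treatment is named for either group. Each of the 11 libraries came from a different animal, and the same 11 animals also gave striatum and cerebellum libraries. The sources used here do not say whether the WT rats were littermates of the KI rats. The cortex libraries of 10 and 19 months, with 10 KI and 10 WT rats at each age, came from other animals.

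An overlong CAG repeat within the gene for huntingtin, which adds glutamines to a run of them in the protein, gives rise to Huntington's disease. Medium spiny neurons of the striatum are the cells classically lost, and pyramidal neurons of the cortex, which project to the striatum, are also affected. A knock-in allele places the expansion in the animal's own gene, so that the gene keeps its own promoter. In bulk tissue, fewer cells of a type and less RNA per cell cannot be told apart. The deposited tables name genes by Ensembl rat identifiers only, and no identifier could be matched to a symbol here. Neither huntingtin nor the markers of neurons, glia and other cell types could therefore be looked up, and 4 identifiers are described by their values alone, with no sequence.

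The 11 libraries held about 30197000 to 34591000 estimated counts, with 18034 to 18534 genes detected. Genes that were at least 4-fold higher in cortex than in both other regions in WT rats of 19 months served as the check of the labelled tissue. Their mean level was 4.08 to 4.19 log2 CPM (CPM is a gene's count scaled to a common library total) in the 11 cortex libraries, 0.51 to 1.95 in the striatum and -0.18 to 0.22 in the cerebellum of the same animals. Of the genes that differed between the sexes in other WT cortex libraries, 6 of 9 female-higher and 7 of 7 male-higher genes separated all 11 libraries by labelled sex. In the comparison itself 11 genes, or 0.0696% of those tested, passed the test for sex, 6 higher in males and 5 in females. Library KI M4 stood apart. Its mean Spearman correlation with the other cortex libraries of its age was 0.979, against 0.991 to 0.993 for the other 10, and it held the highest value of the 11 for 27.3% of genes and the lowest for 26.9%. Values without it are given beside the results that it moves most.

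No gene differed between KI and WT cortex at 24 months in edgeR's quasi-likelihood test with Benjamini-Hochberg adjustment, with sex as a covariate. Of 15810 genes tested, 0 (0%) were called at an adjusted p under 0.05, and the smallest adjusted p was 0.770. At an unadjusted p under 0.05 there were 798 genes, or 5.05%, of which 456 were higher and 342 lower in KI. DESeq2 called 4 genes on the same counts, 3 higher and 1 lower. Every KI library lay above every WT library for 74 genes (0.468%) and below every WT library for 54 genes (0.342%).

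The differences were small over most of the transcriptome. The median log2 difference, KI minus WT, was 0.0074, its median absolute value was 0.092, and the middle 90% of genes ran from -0.33 to 0.26. A difference of more than 1 log2 unit was estimated for 123 genes, 61 higher and 62 lower, none of which passed. The interval of the difference says how far the data bound each gene. Its 95% confidence interval lay wholly within a 2-fold change in either direction for 14413 genes (91.2%) and within a 1.5-fold change for 11946 (75.6%). Among the 9596 genes with a mean of at least 10 CPM, 8914 (92.9%) were bounded within 1.5-fold. For the remaining genes the interval reached beyond 1.5-fold, so that a difference of that size was not bounded by these 11 animals. The plot of all genes shows the spread around 0 widening toward low levels.

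**Figure D1:**
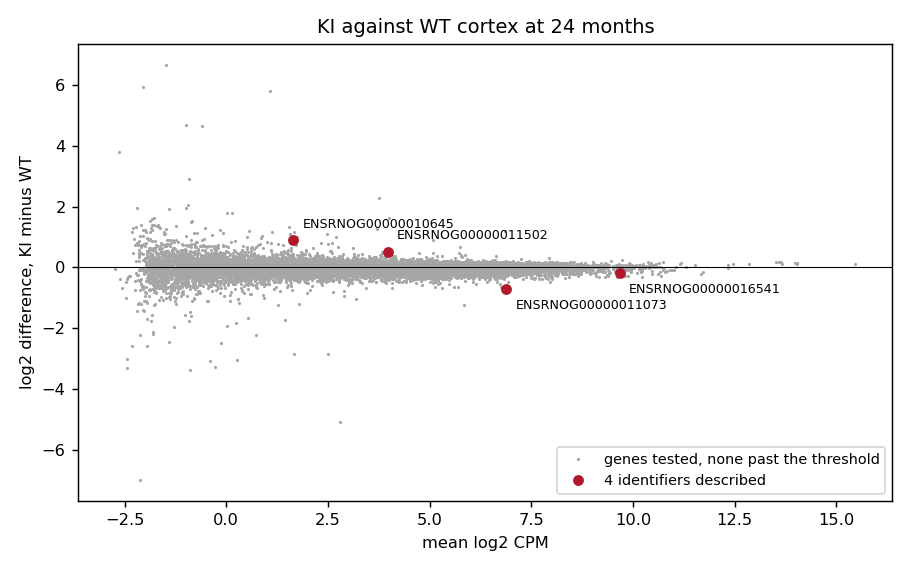
Log2 difference, KI minus WT, of every gene tested in cortex at 24 months (vertical axis) against its mean log2 CPM (horizontal axis). Each grey point is 1 gene, and the 4 red points are the identifiers described in the text. None of the 15810 genes passed the adjusted test.

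The SD among KI libraries was larger than that among WT libraries for most genes. The median SD of a gene's log2 CPM was 0.178 over the 7 KI libraries and 0.107 over the 4 WT libraries, and the SD was larger in KI for 76.8% of genes. Without KI M4 the median SD in KI was 0.145, and it was larger in KI for 67.3% of genes. The difference in spread between the genotypes was not tested. An SD over 4 libraries tends to come out lower than an SD over 7, and all genes share the same 11 libraries.

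The lowest p in the comparison belonged to ENSRNOG00000011073, an identifier that earlier work on these data had already singled out. Its level in the KI females F1, F2 and F3 was 105.7, 98.1 and 80.9 CPM, and in the KI males M1 to M4 it was 109.6, 86.4, 119.5 and 73.4 CPM. The WT females F1 and F2 held 158.2 and 163.6 CPM, and the WT males M1 and M2 held 145.2 and 163.1 CPM. The groups did not overlap, since the highest KI library, M3, was below the lowest WT library, M1. KI averaged 96.2 ± 16.7 CPM (SD, n = 7) and WT 157.5 ± 8.55 (SD, n = 4), which puts KI at 61.1% of WT. The log2 difference was -0.71 ± 0.12 (SE), with an edgeR adjusted p of 0.770 and an unadjusted p of 0.000113. DESeq2 gave it an adjusted p of 0.000906. Females and males were alike in sign, at -0.77 and -0.69.

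The other identifier chosen among those lower in KI, ENSRNOG00000016541, was the most abundant of the 4. On the deposited TPM scale, which corrects for length, its mean was 304 in KI and 358 in WT, against 12.9 and 21.7 for ENSRNOG00000011073. Its cortex level was 764, 792 and 746 CPM in KI F1 to F3 and 820, 804, 814 and 738 CPM in KI M1 to M4. In WT F1, F2, M1 and M2 it was 890, 831, 911 and 929 CPM. The gap between the groups was narrow, with KI M1 just below WT F2. KI stood at 87.9% of WT, and its log2 difference was -0.19 ± 0.043 (SE), with an adjusted p of 0.770 by edgeR and 0.132 by DESeq2.

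ENSRNOG00000010645 had the lowest p among identifiers higher in KI. It was 3.91, 3.39 and 3.71 CPM in KI F1 to F3 and 3.05, 3.58, 3.09 and 5.10 CPM in KI M1 to M4. The WT libraries F1, F2, M1 and M2 held 2.02, 2.51, 1.73 and 1.78 CPM. All 7 KI libraries were above all 4 WT libraries, and the highest of all was KI M4. The level rested on 56 to 159 estimated counts a library. KI averaged 3.69 ± 0.696 CPM (SD, n = 7) and WT 2.01 ± 0.358 (SD, n = 4), and the log2 difference between them was 0.89 ± 0.17 (SE), with an edgeR adjusted p of 0.770. Its DESeq2 adjusted p was 0.012.

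ENSRNOG00000011502 came next among those higher in KI. Its level was 16.0, 21.7 and 15.2 CPM in KI F1 to F3 and 16.8, 16.1, 19.4 and 18.1 CPM in KI M1 to M4. WT libraries were close together, at 12.8, 12.2, 12.8 and 11.4 CPM in F1, F2, M1 and M2. The groups did not overlap, and KI F2 was the highest. KI averaged 17.6 ± 2.32 CPM (SD, n = 7) and WT 12.3 ± 0.678 (SD, n = 4), and the difference was 0.52 ± 0.10 on the log2 scale (SE; adjusted p = 0.770 by edgeR). The adjusted p by DESeq2 was 0.0208. The 4 identifiers were picked for their p or from earlier results of these data, so that their separation is a description and not a further test. Without KI M4 the log2 differences of ENSRNOG00000011073, ENSRNOG00000016541, ENSRNOG00000010645 and ENSRNOG00000011502 were -0.66, -0.18, 0.78 and 0.51, and 0 of 15773 genes passed in edgeR, with 805 at an unadjusted p under 0.05.

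**Figure D2:**
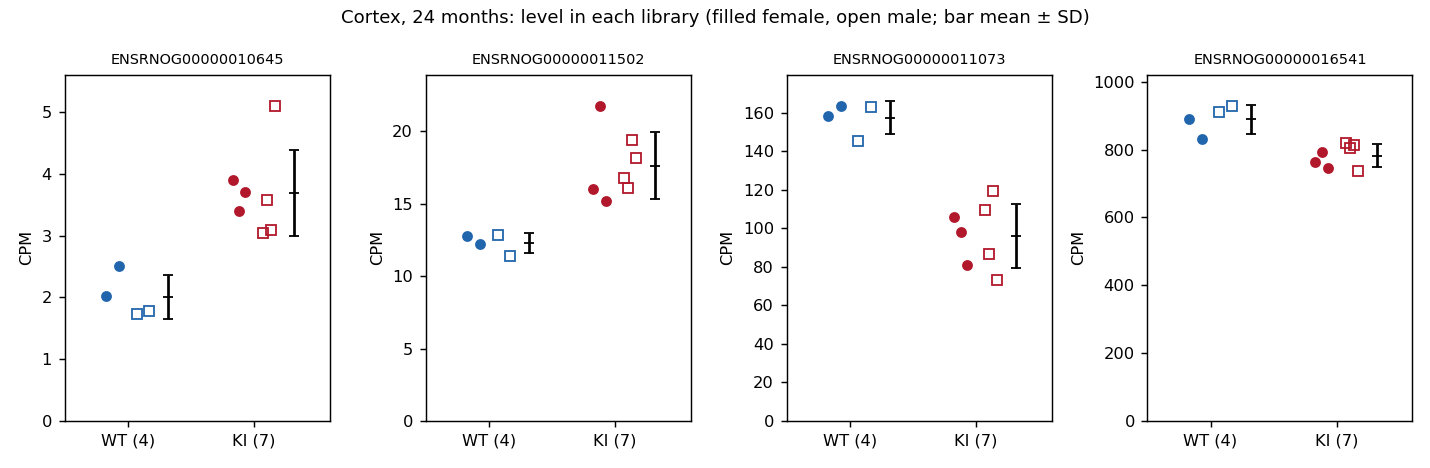
Level in CPM (vertical axis, from 0) of the 4 identifiers in each of the 11 cortex libraries of 24 months, WT in blue and KI in red, with females filled, males open and black bars for the mean ± SD. In each panel the 7 KI points lie wholly above or wholly below the 4 WT points.

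The KI libraries differed in how expression depended on transcript length. For each library the deviation of every gene from its mean over the 11 libraries was regressed on log2 effective length, so that a negative slope means lower values for long transcripts. The slope was 0.028, -0.018 and -0.061 log2 CPM per doubling of length in KI F1 to F3. It was 0.036, -0.012, 0.056 and -0.13 in KI M1 to M4. The 4 WT libraries ran from 0.0082 to 0.042. KI M4 and KI F3 were the lowest, while KI F1, M1 and M3 lay within or above the WT range. The mean slope differed by -0.038 (KI minus WT), which the exact 2-sided permutation test over the 11 libraries did not separate from the spread (p = 0.288, adjusted over 4 library measures 0.384; the smallest p possible is 0.00303). The KI M4 animal had a slope of 0.036 in its striatum library and 0.036 in its cerebellum library, so that the low slope was seen in its cortex library and not in the other two.

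Across genes, Spearman's rho between length and the KI minus WT difference was -0.29 with all libraries and -0.20 without KI M4, as a description over genes that share the same libraries. It was 0.24 at 10 months and 0.26 at 19 months, the opposite sign. The median log2 difference was 0.068 over the quartile of genes with the shortest transcripts and -0.057 over the quartile with the longest, or 0.030 and -0.040 without KI M4.

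ENSRNOG00000011073 is long, with an effective length 5.91 times the median gene's, and its level followed the slope. Over the 7 KI libraries Pearson's r with the slope was 0.953 (exact permutation p = 0.000595, adjusted over 4 identifiers 0.00238) and Spearman's rho 0.964 (exact permutation p = 0.00278, adjusted 0.0111). Without KI M4 and KI M3, the libraries farthest from the median slope, r was 0.917 over 5 libraries. The slope summarises how long genes deviate and this gene is long, so that part of the relation is built in. The KI libraries whose slopes were 0.028 to 0.056 held 105.7 to 119.5 CPM, and the WT libraries held 145.2 to 163.6 CPM. With the slope as a covariate the log2 difference was -0.58 and the edgeR adjusted p 0.000252, the single gene called in that fit. The slope is itself computed from the same expression values. The part of the length trend in the level of this gene was not tested.

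The other 3 identifiers were less tied to the slope. For ENSRNOG00000010645, which is short at 0.425 times the median length, r was -0.845 (exact permutation p = 0.0173, adjusted 0.0345) and rho -0.714 (exact permutation p = 0.0881, adjusted 0.117). Without KI M4 and KI M3 r was -0.338, so that the relation rests on those libraries. For ENSRNOG00000016541, r was 0.801 (exact permutation p = 0.0278, adjusted 0.0370) and rho 0.857 (exact permutation p = 0.0238, adjusted 0.0476), and r fell to 0.576 without the same 2 libraries. It is long, at 2.02 times the median length, so that part of its relation is built in, as for the short ENSRNOG00000010645. For ENSRNOG00000011502 r was 0.0656 (exact permutation p = 0.880, adjusted 0.880) and rho 0.143 (exact permutation p = 0.783, adjusted 0.783), and r was 0.0488 without them.

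**Figure D3:**
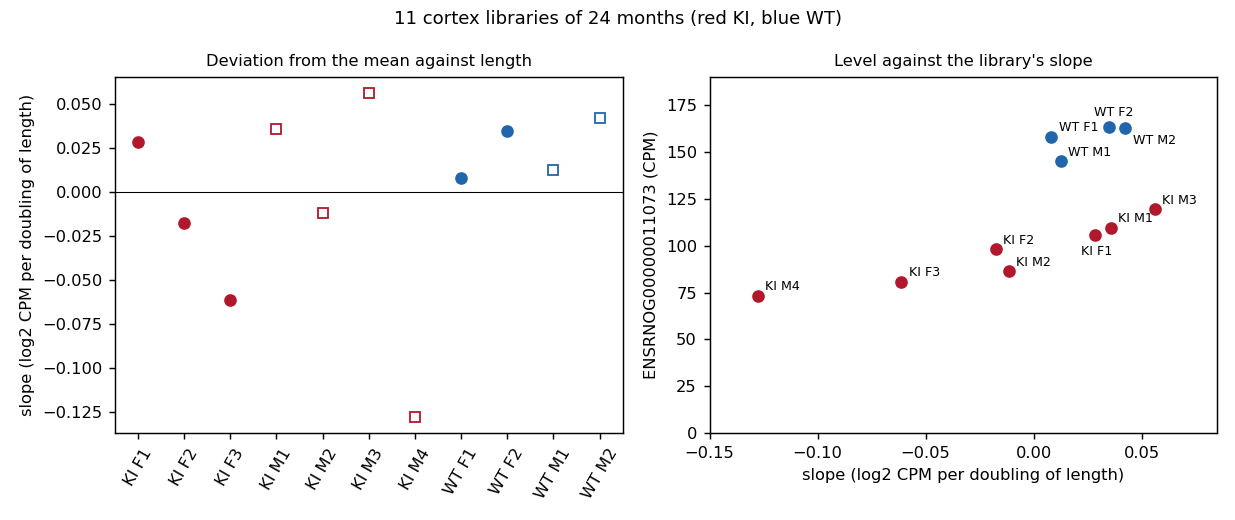
Left, slope of each library's deviations on log2 effective length (vertical axis, log2 CPM per doubling of length) for the 11 cortex libraries, with females filled and males open. Right, level of ENSRNOG00000011073 in CPM (vertical axis, from 0) against that slope (horizontal axis), WT in blue and KI in red; KI M4 has both the lowest slope and the lowest level, and no KI library reaches the WT levels.

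Whether the genotype difference depended on sex or on age was asked next. At an unadjusted p under 0.05 the sex by genotype test in edgeR held 301 of 15810 genes, fewer than the 798 for genotype. It called 0 genes (0%) after adjustment. The DESeq2 count was 2. With 2 WT animals a sex, this test bounds little. The difference at 24 months was compared with that at 19 months over 16212 genes and with that at 10 months over 16179 genes, and edgeR called 0 (0%) in both. At an unadjusted p under 0.05 there were 1824 and 1836 genes, more than the 798 of 15810 for genotype at 24 months. Each age test used 31 libraries, against 11, and the excess was not tested further. DESeq2 called 0 and 7 genes. In the test against 19 months, age cannot be told apart from animal series, since the 19-month rats carry identifiers of another series. Within cortex, KI against WT also gave 0 calls in edgeR at 10 months (0% of 15601 genes, 1041 at an unadjusted p under 0.05) and at 19 months (0% of 15683, 819 at an unadjusted p under 0.05). DESeq2 was not run at those ages.

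The 4 identifiers did not show 1 pattern over the ages. ENSRNOG00000011073 was lower in KI cortex at each age, at 123.7 ± 19.4 CPM against 151.1 ± 26.9 in WT at 10 months (SD, n = 10 and 10) and 111.3 ± 14.1 against 139.0 ± 19.6 at 19 months (SD, n = 10 and 10). The log2 differences were -0.29 and -0.32, neither of which passed the edgeR test (adjusted p = 0.651 and 0.759), and the groups overlapped at both ages. ENSRNOG00000010645 had log2 differences of -0.30 and 0.25 at 10 and 19 months against 0.89 at 24 months. ENSRNOG00000011502 had -0.14 and 0.030 against 0.52, and ENSRNOG00000016541 had 0.073 and 0.018 against -0.19. The edgeR test of the change from 10 to 24 months gave these 4 adjusted p values of 0.244 to 0.437. The edgeR test from 19 to 24 months gave 0.437 for each. The 4 were chosen for their p at 24 months or from earlier results, and these tests use the same 24-month libraries. A larger difference at 24 months is therefore partly built in.

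The same animals' cerebellum gave another picture. There 320 of 15738 genes (2.03%) passed the edgeR test of KI against WT at 24 months, and 350 of 15503 (2.26%) at 19 months in other animals. In striatum 0 of 16067 genes (0%) passed at 24 months, with 485 at an unadjusted p under 0.05, 3 of 15696 (0.0191%) at 19 months and 1 of 15720 (0.00636%) at 10 months. The region by genotype test, with the animal as a block, compared the regions directly. Cortex and cerebellum differed for 36 of 16376 genes (0.22%), 7 with the higher and 29 with the lower KI minus WT difference in cortex. In each of the 36 genes the difference was smaller in size in cortex, and 29 had the opposite sign there. The median absolute log2 difference was 0.072 in cortex against 0.657 in cerebellum. The 36 were selected on these same values, and 35 of them were called in cerebellum. Their sizes and signs are therefore a description and not a further test. The count of genes that differed between cortex and cerebellum was 66 without the KI M4 animal. It was 22, 21 and 12 without KI F2, M1 and M2, 10 and 16 without WT F1 and F2, and 11 and 10 without WT M1 and M2. Cortex and striatum differed at an unadjusted p under 0.05 for 246 of 16469 genes in edgeR. KI against WT cortex alone gave 798 of 15810. After adjustment cortex and striatum differed for 0 genes (0%). The DESeq2 count was also 0.

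The gene of lowest p among those higher in KI cerebellum at 24 months shows the contrast. In cerebellum the WT libraries held 2.66 to 3.13 CPM and the KI libraries 8.33 to 11.5 CPM, a log2 difference of 1.81. In cortex the WT libraries held 23.9 to 27.3 CPM and the KI libraries 21.4 to 26.9 CPM, so that the groups overlapped. The cortex log2 difference was -0.039, with a 95% confidence interval of -0.19 to 0.11. The difference between the regions was -1.85 (edgeR adjusted p = 2.99e-05), and it passed in 14 of 14 settings run. The gene was picked for its p in these cerebellum libraries, which the test between the regions uses again. Its result, like that of the gene that follows, is therefore a description and not a further test. The gene of lowest p among those lower in KI cerebellum had a log2 difference of -0.71 there and 0.011 in cortex (95% confidence interval -0.32 to 0.34), and the edgeR test between the regions missed the threshold (adjusted p = 0.0836). It passed in 2 of 14 settings, with DESeq2 (adjusted p = 0.00119) and in edgeR without WT F2 (adjusted p = 0.0461), and the adjusted p reached 0.262 over the 14.

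Of the 4 cortex identifiers 3 passed the edgeR test in cerebellum at 24 months, where 2.03% of all genes tested passed. Those cerebellum libraries came from the same rats as the cortex libraries. ENSRNOG00000011073 was named from earlier results of these data, so that its calls in other regions are a description and not a further test. ENSRNOG00000011073 fell in KI cerebellum at 24 months to 72.1% of WT, with a log2 difference of -0.47 (edgeR adjusted p = 0.000621), and at 19 months (-0.51, edgeR adjusted p = 0.0012). It was also lower in striatum, where it passed at 10 months (-0.47, edgeR adjusted p = 0.00769) and 19 months (-0.55, edgeR adjusted p = 0.0259). In striatum at 24 months its difference was -0.69 and missed the threshold (edgeR adjusted p = 0.998), with no overlap between the groups. The KI M4 animal, lowest in cortex, had the highest KI level of this gene in striatum (100.2 CPM) and in cerebellum (168.4 CPM). The cortex and cerebellum differences of this gene did not separate (-0.27 ± 0.15, SE; edgeR adjusted p = 0.551).

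ENSRNOG00000011502 rose in KI cerebellum to 221.3 ± 27.0 CPM against 118.8 ± 10.4 in WT at 24 months (SD, n = 7 and 4), a log2 difference of 0.90 (edgeR adjusted p = 0.000864). At 19 months it rose by 0.48 (edgeR adjusted p = 0.0220). The difference was smaller in cortex than in cerebellum of the same animals by 0.40 ± 0.063 log2 units (SE; edgeR adjusted p = 0.0214). That call held in 10 of 14 settings and was lost without KI M2, WT F1, WT M1 or WT M2, with adjusted p of 0.0607, 0.114, 0.0822 and 0.125 by edgeR. ENSRNOG00000010645 rose in KI cerebellum at both ages, by 0.69 at 24 months (edgeR adjusted p = 0.0369) and 0.99 at 19 months (edgeR adjusted p = 7.3e-05). Its cortex and cerebellum differences did not separate (0.17 ± 0.16, SE; edgeR adjusted p = 0.698). ENSRNOG00000016541 passed in no region or age, and had a log2 difference of 0.19 in cerebellum at 24 months.

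**Figure D4:**
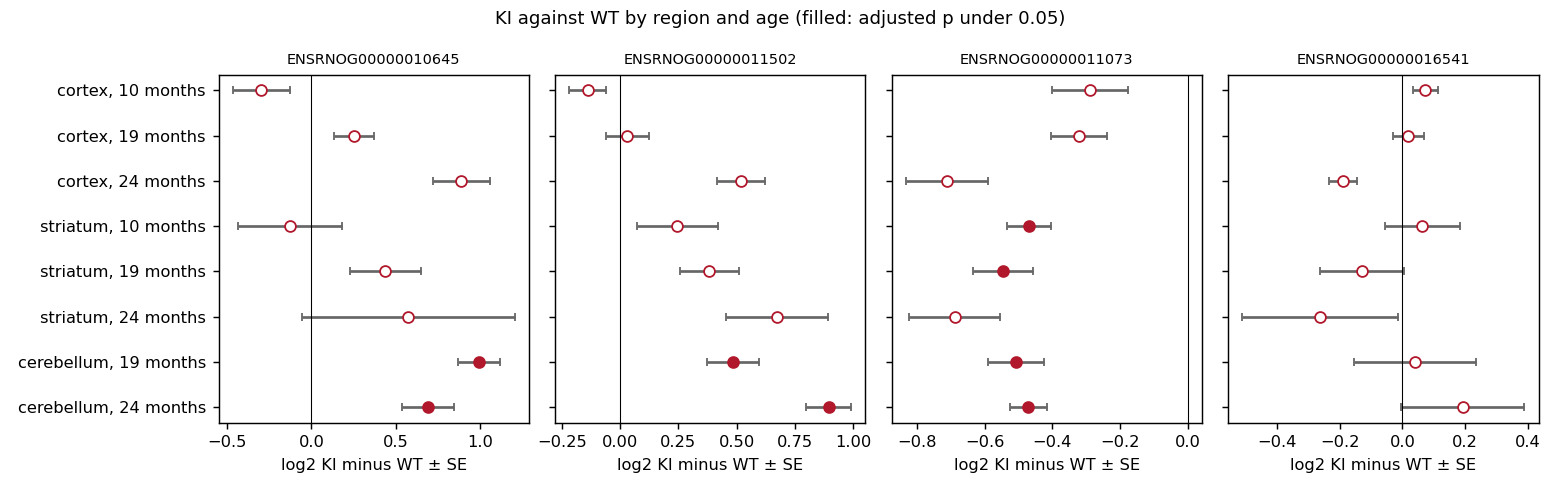
Log2 difference, KI minus WT, with its SE (horizontal axis) for the 4 identifiers in cortex, striatum and cerebellum at each age (vertical axis), with filled points where the edgeR adjusted p is under 0.05. ENSRNOG00000011073, which earlier work on these data singled out, is below 0 in all 8 comparisons, while the cortex points of all 4 are open.

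Gene groups defined in libraries outside the comparison were then described in cortex at 24 months, and 0 of their genes passed. Over all genes tested 8253 were higher and 7557 lower in KI, with a median log2 difference of 0.0074, or -0.0014 without KI M4. Of 151 cortex-enriched genes 63 were higher and 88 lower (median -0.017, or -0.038 without KI M4). Scaled over the cortex libraries alone, their mean level was 3.98 to 4.10 log2 CPM in KI and 4.04 to 4.11 in WT, which overlapped, with KI M4 the lowest. Their median was also over 1.5 times as large without KI F1 (-0.029), KI F3 (-0.038), KI M1 (-0.039) or WT F2 (-0.040). Of 207 striatum-enriched genes 77 were higher and 130 lower (median -0.066), and of 253 cerebellum-enriched genes 107 were higher and 146 lower (median -0.053). Without KI M4 these medians were -0.091 and -0.052. The striatum-enriched median ran from -0.12 without WT M1 to -0.035 without WT F2, and was -0.10 without KI M3 and -0.11 without WT F1. The cerebellum-enriched median was -0.027 without WT F2.

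Genes called in KI cerebellum at 19 months had small medians in cortex, with the sign seen in cerebellum. Of those that had risen 59.7% were higher in KI cortex, and of those that had fallen 40.1%, against 52.2% of all genes. At an unadjusted p under 0.05 in edgeR, 10 of the risers were higher and 3 lower. Of the fallers 2 were higher and 12 lower. These shares were 8.44% and 7.69%, against 5.05% of all genes. The lean was not tested. Of the 154 that had risen there and were tested, 92 were higher and 62 lower in cortex at 24 months, with a median of 0.023 against 0.30 in cerebellum at 24 months. Of the 182 that had fallen, 73 were higher and 109 lower, with a median of -0.021 against -0.26 in cerebellum. The cortex median of the fallers was -0.041 without KI M4, with 59 of 182 higher. It was -0.032 without KI F2, -0.013 without WT M1, -0.010 without KI M3 and -0.0095 without KI F1. In cerebellum at 24 months, 157 of the 161 genes that had risen kept their sign, and 186 of the 189 that had fallen.

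More genes passed between the ages of 10 and 19 months than for genotype in cortex, over 10 animals against 10. The 19-month rats carry animal identifiers of another series than the rats of 10 and 24 months. Age and animal series therefore cannot be told apart in this comparison or in the groups taken from it. Between WT cortex of 10 and 19 months 1086 of 15644 genes (6.94%) passed the edgeR test. Of the genes that rose with age and were tested here, 257 were higher and 312 lower in KI at 24 months (569 genes, median -0.010). Without KI M4, 223 of the 569 were higher and the median was -0.025. The direction of this small median turned without WT F2 (0.00051), and it was -0.016, -0.021, -0.024 and -0.018 without KI F2, KI F3, WT M1 and WT M2. Of those that fell with age, 348 were higher and 164 lower in KI (512 genes, 68.0% higher, median 0.040), against 52.2% higher over all genes. Their mean log2 CPM was 4.65 to 4.71 in the 7 KI libraries and 4.58 to 4.67 in the 4 WT libraries, which overlapped.

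The genes of lowest p at the younger ages were followed to 24 months. Of the 100 genes of lowest p among those lower in KI cortex at 10 months, 99 were tested at 24 months, of which 84 were higher and 15 lower (median 0.12). Without KI M4, 74 of the 99 were higher and the median was 0.068. The 100 such genes of 19 months gave 70 higher and 29 lower of 99 (median 0.068, or 0.031 without KI M4). Both sets are short, with median log2 effective lengths of -0.24 and -0.56 relative to the centre of all genes, and with the slope on length as a covariate their medians were 0.083 and -0.0048. The part of transcript length in these counts was not tested further. The corresponding 100 genes higher in KI at 10 months gave 34 higher and 64 lower of 98 (median -0.045, or -0.025 without KI M4). That median was -0.068 without KI F2, -0.024 without WT M1 and -0.028 without WT M2. The 100 higher at 19 months gave 46 higher and 53 lower of 99 (median -0.013), a direction that did not hold. Without KI M4, 55 of the 99 were higher and the median was 0.013, and with the slope as a covariate it was 0.059. When other libraries were left out in turn it went as low as -0.030 (without KI F2), and it was also above 0 without KI F3, WT M1 or WT M2.

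Read the other way, the 100 genes of lowest p higher in KI cortex at 24 months had the same sign in 21 of 95 tested at 10 months and 55 of 96 at 19 months. Over all genes 47.1% and 49.0% were higher in KI at those ages. The 100 lower genes had the same sign in 30 of 93 at 10 months and 43 of 95 at 19 months. At those ages 52.9% and 51.0% of all genes were lower. The difference ran with transcript length at a rho of -0.29 at 24 months, or -0.20 without KI M4. That rho was 0.24 and 0.26 at 10 and 19 months. The part of transcript length and of KI M4 in these counts was not tested.

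**Figure D5:**
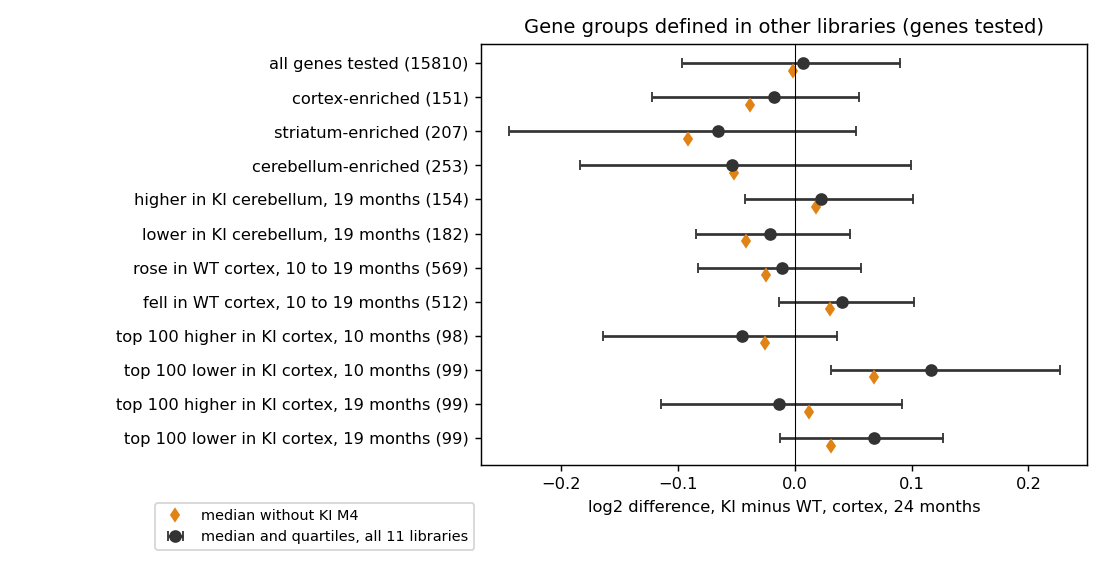
Median and quartiles of the log2 difference, KI minus WT, in cortex at 24 months (horizontal axis) for gene groups defined in other libraries (vertical axis, number of genes tested in brackets), with orange diamonds for the median without KI M4. Medians lie between -0.066 and 0.12, and the largest is that of the genes lower in KI cortex at 10 months.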

How the data were processed

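The 11 libraries were matched to columns of the 2 deposited tables by animal and region. The first table holds estimated counts, 8.12% of them not whole, which the authors deposited for 32883 Ensembl identifiers and which were rounded here, although the design assumed whole counts. The authors call the second table FPKM, yet each deposited library in it sums to the same total as TPM and was treated as TPM. The reference is Rat.B6.0 per the file headers, and for aligner and counting tool: not given in the sources used here. Per the labels' protocols, RNA was taken from flash-frozen tissue.

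Comparisons used edgeR 4.0.16 in R 4.3.3 (TMM, filterByExpr, robust quasi-likelihood F test, sex as covariate), with calls at a Benjamini-Hochberg adjusted p under 0.05. Levels are CPM with TMM factors, and log2 CPM uses a prior count of 2. SEs were derived from the F statistic. Effective length came from the ratio of the 2 tables. Library measures were compared by exact permutation over 330 assignments. Within a region every library is a separate rat, and p-values of tests within a region therefore reflect the spread among rats. The tests between regions used a library of each compared region from every rat, with the animal as a block.

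Symbols matched 0 identifiers, so the gene and cell type lists were not tested. The identifiers named are the 2 of lowest p higher in KI and, among those lower, 1 singled out by earlier work and the next by p, each averaging 1 log2 CPM or more and of 1 sign in both sexes. Members and lists were chosen with earlier results of these data known. The sex term and the relations of single genes to the length slope were added after the data were seen. Alternatives were RLE factors, DESeq2 1.42.0, other count filters, all cortex ages in 1 fit, limma 3.58.1 on log2 TPM plus 0.1 or 1, a replicate block, each sex alone, no sex term, the length slope as covariate and leaving out each library. The fits were tested on simulated data.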

Additional observations from a re-analysis of the deposited data

Results flagged for a closer look

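Library KI M4 was far from the others of its group in 3 measures among 44 groups of values examined, where chance gives about 1 in 20. Its ENSRNOG00000010645 level in cortex was 5.10 CPM, against 3.91 in the next highest KI library. Its mean Spearman correlation with the other cortex libraries of 24 months was 0.979, against 0.991 in the next lowest KI library. Its mean log2 CPM over the 100 genes of lowest p among those higher in KI cortex at 10 months was 2.79, against 3.00 in the next lowest KI library. The cause was not tested.

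The KI minus WT difference itself differed between cortex and cerebellum of the same animals for 36 genes in edgeR's region by genotype test. This count ran from 10 to 66 when 1 animal was left out.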

How the results depend on the processing

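The count of 0 genes in KI against WT cortex remained 0 when any 1 library was left out. DESeq2 called 4 genes, all cortex ages in 1 fit 2, females alone 1 and the slope on length as a covariate 1. The cause was not tested. In the all-ages fit the calls were ENSRNOG00000011073 and a gene at 6.65 CPM in WT M1 and at most 0.385 in the other libraries. With the replicate block 1 gene was called, at 71.7 CPM in WT F2 and at most 2.83 elsewhere. Same-numbered KI and WT libraries had correlations of deviations from -0.202 to -0.031. The deviations were taken within genotype and sex, so that with 2 WT animals a sex the WT values mirror each other. These correlations therefore cannot decide whether the numbers pair the animals. Sex by genotype gave 2 calls in DESeq2 and 0 to 2 without 1 library (2 without KI F2, 1 without WT M1 and 1 without WT M2). Age by genotype against 10 months gave 7 in DESeq2 and 0 to 2 (2 without WT M2). Cortex against cerebellum gave 146 in DESeq2 and 10 to 66 without 1 animal. The 4 identifiers kept their sign in 100 of 100 combinations of identifier and setting. They were chosen for their p or from earlier results, and their KI and WT libraries did not overlap. That count was therefore largely fixed by the choice and is not a further test. The group medians kept their sign in 185 of 195. The mean slope difference ran from -0.050 to -0.019 without 1 library. With 4 WT animals, the genes that did not pass were not limited to small estimated differences or low levels. Whether any of them truly differs was not tested. None of the 123 genes with an estimated difference of more than 1 log2 unit passed in edgeR. Nor did ENSRNOG00000011073, at 157.5 CPM in WT and 61.1% of WT in KI (edgeR adjusted p = 0.770).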

Other observations

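The fourth gene that DESeq2 called in cortex at 24 months was chosen after its values were seen, and its identifier is not printed. It was higher in KI, at 16.3 ± 4.09 CPM (SD, n = 7) against 7.01 ± 3.29 in WT (SD, n = 4). The groups overlapped, since the lowest KI library held 10.9 CPM and the highest WT library 11.5 CPM. The log2 difference was 1.26, with a DESeq2 adjusted p of 0.00171 and an edgeR adjusted p of 0.770. In cortex at 10 and 19 months its log2 difference was -0.14 and 0.00085 (edgeR adjusted p = 0.884 and 0.999), and in striatum and cerebellum at 24 months -0.22 and -0.22 (edgeR adjusted p = 0.998 and 0.882).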
